A study of Bos taurus with 12 samples.

Results

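Far loci are positions in the sperm genome whose closest annotated feature was a CpG island listed as more than 4000 bp away. They were taken from both tables of the study by 3 labels of the authors' annotation: an autosome (1 to 29), a CpG island as the closest feature and a distance above 4000 bp. They comprised 2645 of the 13502 autosomal CpG sites listed (19.6%; 17730 sites listed in all) and 1253 of the 6580 autosomal 500 bp windows (19.04%; 7290 listed in all). The windows, called tiles, start every 100 bp, so neighbouring tiles overlap and share CpGs.

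The study compared 6 bull sperm samples labelled with low daughter fertility and 6 labelled with high daughter fertility. The labels name no treatment in either group and give no age, breed, batch or pairing. Whole-genome libraries were made by EM-seq, which converts unmethylated cytosines with enzymes in place of bisulfite. Coordinates are those of the cattle assembly ARS-UCD1.2. Each locus has 1 methylation difference between the groups, in percentage points, with the authors' q-value. No value per sample was analysed here, so the spread between samples and the depth behind each locus are unknown here, and every comparison below is a description without a test. Which group was subtracted from which is not stated, so a negative or positive sign is the sign as listed. A locus was called when q was below 0.05 and the difference was at least 10 points.

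CpG islands are short stretches dense in CpG dinucleotides, often at promoters, and mostly free of methylation. The flanks next to them are known as shores and shelves, and the CpG-poor remainder, which holds most of the genome, as open sea. In mature sperm the open sea is mostly methylated. Far loci are listed with an island, and not an exon, intron or untranslated region, as closest feature, so most lie between the gene features of the tables.

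The listed distances were recomputed from the listed positions. For all 2645 sites the listed distance equalled the gap between site and island. For 825 tiles that precede their island the distance was counted from the far edge of the tile and exceeded the gap by 499 bp, and it equalled the gap for 425. The remaining 3 tiles, on chromosome 19, lay inside their own 25867 bp island. With the distance taken from the nearest edge, 1244 of the far tiles lay more than 4000 bp from their island. There were exceptions: 17 far sites, 1 of them called, lay inside a gene feature listed in another row, and 5 far tiles had a closer listed gene feature.

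Far sites with a called difference between the groups were mostly negative as listed, and calls were about as frequent as among autosomal sites at large. Of the 2645 far sites 135 were called (5.10%), against 4.48% of all autosomal sites. Negative calls made up 107 of the 135, or 4.05% of far sites against 3.07% of autosomal sites. The 28 positive calls were 1.06% of far sites against 1.41%. Thus 79.3% of called far sites were negative, against 63.8% of the 307 called sites that lay as far from a closest gene feature and 68.6% of all 605 called autosomal sites. Without the chromosome 14 block described below, 72 of 98 called far sites were negative (73.5%). With 1 site per 1 kb cluster the share was 72.2%. Counting q alone gave 174 far sites (6.58%) against 6.06%, and a difference of at least 5 points gave 6.5% against 5.93%. A difference of at least 20 points gave 57 far sites (2.16%) against 1.97%, and q below 0.01 gave 2.42% against 2.26%. Each of these shares lay near its background.

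Most far sites differed little. The median difference of the 2645 far sites in the authors' deposited table was -0.91 points, with quartiles at -4.07 and 1.82, against -0.91 points for sites as far from a gene feature and -0.71 points for all autosomal sites. The extremes were -48.1 and 47.5 points. A size of at least 10 points was listed for 323 far sites, of which 188 were not called because q was 0.05 or more.

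Far tiles were mostly negative as listed, though not at every island. By the authors' deposited table their median difference was -2.56 points, with quartiles at -4.75 and -0.96, against -1.59 points for tiles as far from a gene feature and -0.84 points for all autosomal tiles. A negative difference was listed for 85.2% of far tiles, against 76.2% of tiles as far from a gene feature and 70.3% of autosomal tiles. The 60 called tiles were 4.79% of far tiles, against 2.34% of autosomal tiles, and lay in 6 stretches of the genome. All 60 were negative, which is 4.79% against 2.17%, and no positive call was made against 0.167%.

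Tiles pool the reads of several CpGs, and most had a q below 0.05 at a small difference. Of the far tiles 1019 (81.3%) had q below 0.05, against 71% of autosomal tiles, and 959 of these differed by less than 10 points. Called far tiles spanned 10.01 to 13.3 points in size in the authors' deposited table, so 306 tiles passed at 5 points (24.4% against 13.9%) and none at 20 points (0% against 0.122%). At q below 0.01 the 60 calls were the same in number (4.79% against 2.34%).

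Calls became more frequent with distance from the island. Among far sites 38 of 1043 were called at 4 to 20 kb (above 4000 and up to 20000 bp, 3.64%), 57 of 990 at 20 to 100 kb (5.76%) and 40 of 612 above 100 kb (6.54%). Sites whose closest feature was part of a gene showed no such order at the same distances, with 4.94%, 4.74% and 4.14%. Calls of at least 20 points among far sites were 1.34%, 2.12% and 3.59% over the 3 bins, against 1.97% of all autosomal sites. At this size sites with a gene feature as closest also went up, though less, with 2.07%, 2.10% and 2.43%. The median differences moved little, at -0.51, -1.09 and -1.03 points in the authors' deposited table. Closer in, 33 of the 993 sites at 1 to 4000 bp from their island were called (3.32%), and none of the 11 sites at 0 bp.

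**Figure D1:**
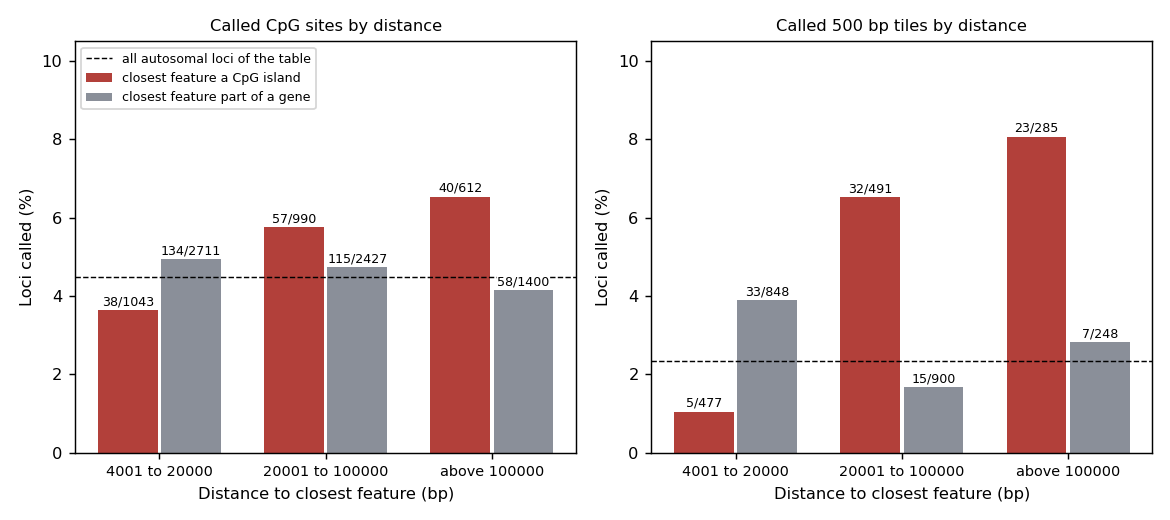
Percentage of loci called (vertical axis) by distance to the closest annotated feature in bp (horizontal axis), for single CpG sites (left) and 500 bp tiles (right). Red bars are far loci with a CpG island as closest feature, grey bars are loci with a gene feature as closest, the dashed line is all autosomal loci, and the fractions are loci called over loci listed. Red bars go up from 3.64% to 6.54% in sites and from 1.05% to 8.07% in tiles, and grey bars show no such order.

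Tiles had the steeper order. Among far tiles 5 of 477 were called at 4 to 20 kb (1.05%), 32 of 491 at 20 to 100 kb (6.52%) and 23 of 285 above 100 kb (8.07%). For tiles with a gene feature as closest the shares were 3.89%, 1.67% and 2.82%. Within 1 to 4000 bp of the island 9 of 1565 tiles were called (0.575%). Median differences of far tiles in the authors' deposited table were -1.98, -2.43 and -4.08 points over the 3 bins, against -2.28, -0.87 and -2.88 points for tiles with a gene feature as closest and -0.19 points for tiles at 1 to 4000 bp of an island. Without the chromosome 6 and chromosome 14 blocks described next the far medians were -1.98, -2.12 and -3.12 points.

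The order in tiles rested on a pair of stretches. The called tiles of the top bin all lay in 1 block of chromosome 6, and without that block 0 of 183 tiles above 100 kb were called. Without a block of chromosome 14, 9 of 429 were called at 20 to 100 kb (2.10%). Leaving out both left 14 of 1089 far tiles called (1.29%) and a median difference of -2.18 points. In sites the order was flatter without the block of chromosome 14: 3.64%, 3.72% and 5.20%. Counting each island once, as called if any of its far sites was called, gave 4.65%, 6.47% and 10.8% of the 452, 464 and 232 islands of the 3 bins.

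**Figure D2:**
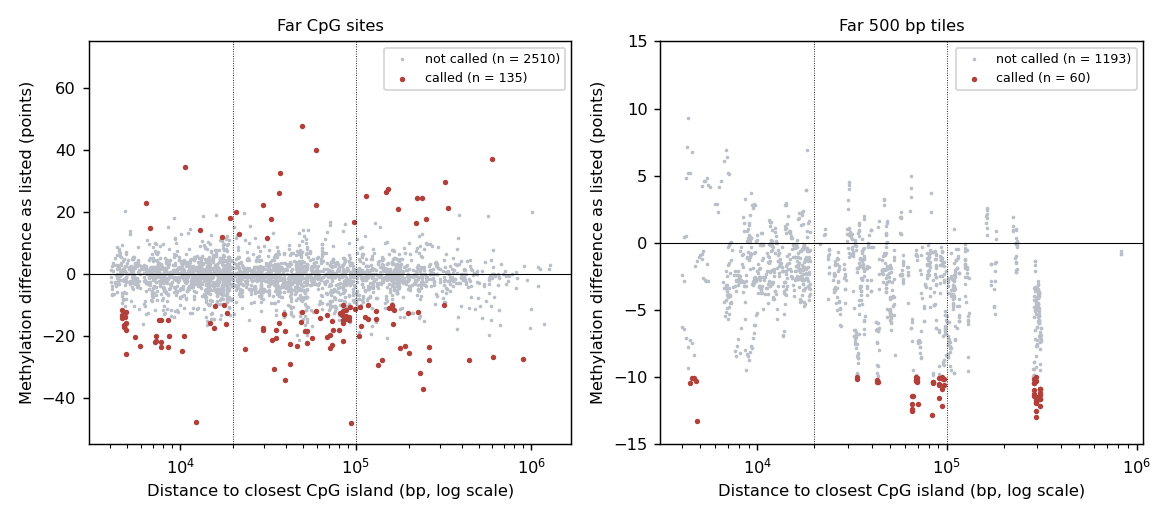
Methylation difference as listed in percentage points (vertical axis) against distance to the closest CpG island in bp on a log scale (horizontal axis), for each far site (left) and each far tile (right). Red points are called loci, grey points are not, and dotted lines mark 20000 and 100000 bp. Called sites lie on both sides of 0 in all 3 bins, from -48.1 to 47.5 points, while the 60 called tiles form a few clumps between -13.3 and -10.01 points.

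At the 4000 bp limit itself, none of the 36 sites at 4019 to 4499 bp was called and 3 of the 90 sites at 3503 to 3997 bp were. One of 17 tiles in the same band inside the limit was called and none of 19 outside.

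Among the sites listed, far sites divide into many that stand alone and a few dense stretches. Only listed sites were counted, so a lone site can have unlisted CpGs nearby. Whether the spacing reflects which positions were listed was not tested. No other listed site lay within 1 kb of 1305 far sites (49.3%), against 51.2% of all autosomal sites. This share was 40.6%, 48.8% and 65.2% of far sites in the 3 bins. For sites with a gene feature as closest it was 51.4%, 50.9% and 70.4% at the same distances, so standing alone is not particular to far sites. Of the lone far sites 53 were called (4.06%), 35 of them negative (66.0%), with a median called size of 22.9 points. Of the 872 with 1 to 9 others 55 were called (6.31%), 47 of them negative (85.5%). Of the 468 far sites with 10 or more others within 1 kb 27 were called (5.77%), 25 of them negative (92.6%), with a median called size of 15.8 points. Lone calls were therefore larger and of more mixed sign than calls in dense stretches. The same 3 classes of all autosomal sites had 3.76%, 4.96% and 5.92% called. Of those calls 60.8%, 71.8% and 80.2% were negative, and their median sizes were 22.2, 18.7 and 15.6 points. The shifts in sign and in size were thus present over autosomal sites at large.

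The order by distance was also seen among lone far sites. Of these 10 of 423 were called at 4 to 20 kb (2.36%), 21 of 483 at 20 to 100 kb (4.35%) and 22 of 399 above 100 kb (5.51%). Lone sites with a gene feature as closest had 4.30%, 3.72% and 4.57% at the same distances.

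**Figure D3:**
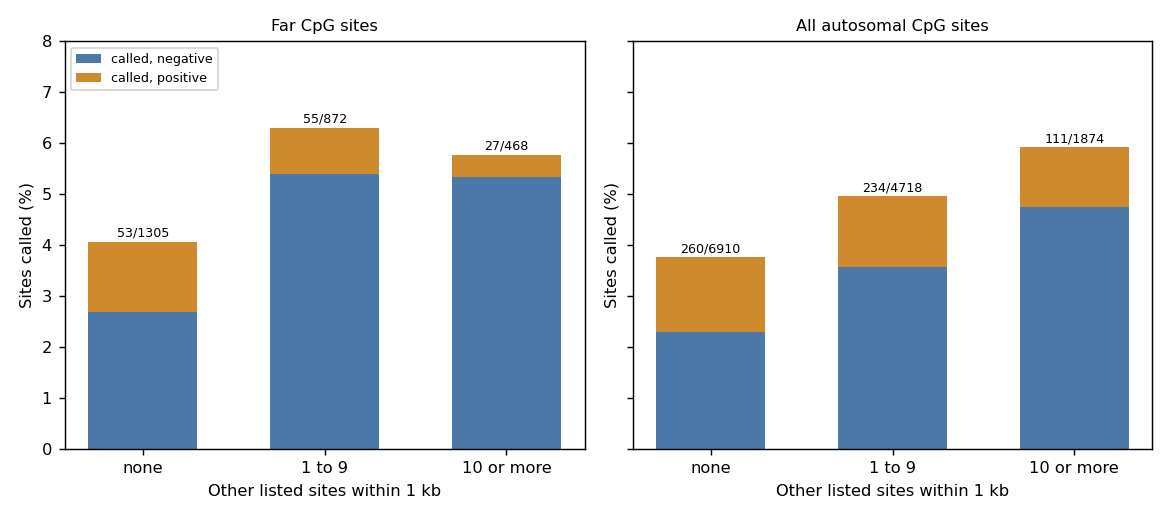
Percentage of CpG sites called (vertical axis), split by sign as listed, against the number of other listed sites within 1 kb (horizontal axis), for far sites (left) and all autosomal sites (right). Blue is negative, orange is positive, and the fractions are sites called over sites in the class. Positive calls take 18 of the 53 calls of lone far sites and 2 of the 27 calls of far sites with 10 or more neighbours.

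When calls no more than 100 kb apart were joined, the 135 called far sites formed 72 blocks on 21 autosomes. A single call made up 65 of them (42 negative, 23 positive), and the 5 largest held 66 calls (48.9%). Blocks, of sites here and of tiles below, run from first to last call, which raises the called share inside them. The largest lay on chromosome 14, at chr14:13476799-13639288, where 37 of 189 far sites were called, 35 of them negative. Their differences in the authors' deposited table ran from -24.1 to 24.4 points, and the median over all 189 was -4.91 points. All had the same closest island, of 564 bp, with the called sites 59171 to 221660 bp from it. The closest gene feature listed anywhere in the site table belonged to ENSBTAG00000052622, which has no name there, at 110438 bp. Chromosome 14 thereby gave 40 of its 281 far sites as called (14.2%).

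The same stretch held called tiles. At chr14:13602401-13633500 all 62 far tiles were negative and 23 were called, with a median of -8.74 points in the authors' deposited table. Of all 152 far tiles of this island 147 were negative. Sites and tiles are made from the same reads, so the tiles are not a second measurement.

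The other block with 23 called tiles lay on chromosome 6, at chr6:5434401-5457400. All 102 far tiles there were negative, with a median of -5.06 points in the authors' deposited table, 288152 to 310652 bp from an island of 2215 bp. The calls fell in 3 runs, with smaller negative differences between them. Only 1 far site was listed for this island, which the authors' deposited table gives as -9.28 points with q = 0.091, so the block rests on tiles. Its closest listed gene was phosphodiesterase 5A, an enzyme that breaks down cyclic GMP, at 324499 bp.

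**Figure D4:**
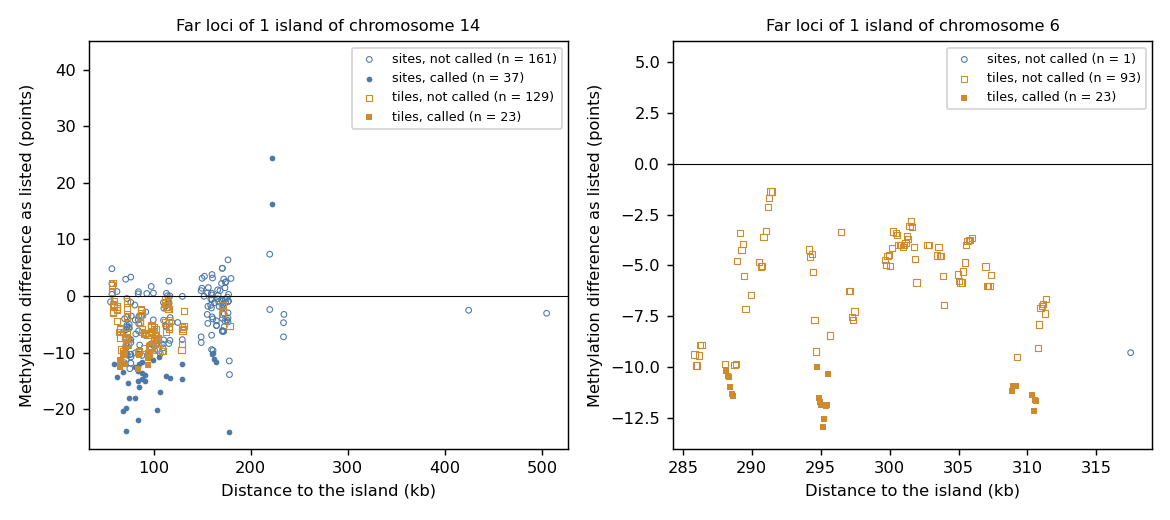
Methylation difference as listed in percentage points (vertical axis) against distance in kb (horizontal axis) for far loci of 1 island of chromosome 14 (left) and 1 island of chromosome 6 (right). Circles are sites, squares are tiles, and filled symbols are called. On chromosome 14 35 of the 37 called sites and all 23 called tiles lie below 0, and on chromosome 6 all 116 tiles lie below 0 with 3 runs of calls.

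Of the other blocks with several called sites, chr21:32905944-32950222 had 12 calls (10 negative) among 75 far sites, and chr13:80541-135632 had 8 (7 negative) among 208. On chr18:50714582-50739417 6 of 112 were called, all negative, and on chr9:30019-78232 3 of 4, all negative. The chromosome 13 and chromosome 9 blocks lie within the first 1 Mb, the centromere end of cattle autosomes, which have their centromere at the tip. At chr1:617784-617785 both strands of 1 CpG were called, at -22.1 and -23.6 points in the authors' deposited table.

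The remaining called tiles lay in 4 short stretches, each no longer than 900 bp and each all negative. At chr21:32905701-32906600 all 5 tiles were called, 4428 to 4828 bp from their island and thus just past the 4000 bp limit. At chr15:64080301-64081200 4 of 5 were called, with F-box protein 3, a subunit of a ubiquitin ligase, as closest listed gene at 322462 bp. At chr18:50742601-50743400 3 of 4 were called, 145779 bp from hormone-sensitive lipase (lipase E), which releases fatty acids from stored fat. Lipase E was closest only among features listed for tiles. Those listed for sites include a closer one, of ENSBTAG00000054384, 78698 bp from the chromosome 18 block of sites. At chr11:5456501-5457100 2 of 2 were called and no gene was listed within 500 kb. Each stretch ends at its outermost calls, so these shares are high by construction. Over the whole island, 5 of 6 far tiles were called on chromosome 21. It was 3 of 65 on chromosome 18 and 2 of 16 on chromosome 11. On chromosome 15 the strongest tile had 4 others within 1 kb, 3 of them called. Neighbouring genes are given for position alone, and none was measured.

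The chromosome 11 stretch has the same positions as part of the chromosome 6 block. Tiles of both chromosomes start at 9 shared positions, 5456201 to 5457001. The chromosome 6 tiles ran from -11.4 to -9.83 points there (6 called) and the chromosome 11 tiles from -10.1 to -6.68 points (2 called) in the authors' deposited table, with no value shared. Among 5265 tiles past the first 1 Mb only 12 starts were shared by a pair of chromosomes, these 9 included. What part this has in the results of both stretches was not tested.

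The strongest tile of each stretch was -13.3 points on chromosome 21 (chr21:32906101-32906600, q = 1.58e-17), -12.9 points on chromosome 6 (q = 3.47e-187) and -12.8 points on chromosome 14 (q = 1.03e-33) in the authors' deposited table. The other stretches peaked at -11.6 points on chromosome 15, -10.4 points on chromosome 18 and -10.1 points on chromosome 11 in that table. All 6 had another called tile within 1 kb.

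The largest differences at single far sites were, with 1 exception, at sites with no other listed site within 1 kb. By the authors' deposited table the lowest was -48.1 points at chr21:48254328 (q = 6.44e-08), 94055 bp from its island. Its closest listed gene, 139705 bp off, encodes C-type lectin domain containing 14A, a surface protein of blood vessel endothelium. Next came chr26:45889924 at -48.0 points (q = 1.43e-08, the lowest of any far site), 12346 bp from its island in the authors' deposited table. It lay 72490 bp from the cattle counterpart of human C10orf90.

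Below these the authors' deposited table listed -37.2 points at chr9:90265110 (q = 1.58e-05) and -34.4 points at chr10:44979371 (q = 4.24e-07). The chromosome 10 site lay 184168 bp from the gene of the prostaglandin D2 receptor, and the chromosome 9 site had no listed gene within 500 kb. The other 6 of the 10 lowest sites ran from -32.0 to -27.8 points in the authors' deposited table. They include chr5:77774768 at -29.0 points, 43333 bp from the gene of BICD cargo adaptor 1, which links cargo to the dynein motor.

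On the positive side the authors' deposited table listed 47.5 points at chr14:46717885 (q = 2.06e-08), 49505 bp from its island. This site lay on the chromosome of the largest negative block but outside it. It was followed by 39.97 points at chr20:56024200 (q = 1.87e-05), 37.0 points at chr24:6023864 (q = 4.32e-05) and 34.5 points at chr1:95698720 (q = 1.26e-06) in the authors' deposited table. The chromosome 1 site was 48333 bp from ENSBTAG00000006174, a gene listed as a transmembrane protein. The other 6 of the 10 highest ran from 25 to 32.5 points in the authors' deposited table. Among them were chr9:51081055, 196030 bp from F-box and leucine rich repeat protein 4, a mitochondrial protein, and chr20:28995895, 171002 bp from an HCN-type pacemaker channel gene. Of these 20 extreme sites 19 had no listed site within 1 kb, and the 1 with neighbours had 3, none called.

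Calls reached far out. By the authors' deposited table the farthest called site, chr6:38884770, lay 892835 bp from its island and had -27.4 points (q = 0.0112). The farthest listed site, at 1268563 bp on chromosome 18, was at 2.92 points (q = 0.542) there.

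Neighbouring far loci were compared for shared sign, which the choice of members does not fix. Both strands were listed for 121 far CpGs, and 71 had the same sign on both (58.7%, Spearman rho 0.35 across CpGs). The median gap between strands was 3.80 points, and it was 10 points or more at 19 CpGs (15.7%). Where at least 1 strand was called the sign was shared in 19 of 22, and both strands were called in 4. Of these 22 CpGs 20 lay in the blocks of chromosomes 14 and 21, where most calls were negative, and in the 2 others the sign was shared as well.

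Along the chromosome, consecutive far sites had the same sign in 59.5% of 624 pairs 2 to 100 bp apart, 57.5% of 346 pairs more than 100 and up to 1000 bp apart and 46.7% of 165 pairs more than 1000 and up to 10000 bp apart. Consecutive far tiles shared it in 95.6% of 1069 pairs that overlapped or adjoined, where they share CpGs, in 82.3% of 62 pairs more than 100 and up to 1000 bp apart, in 76.8% of 56 pairs up to 10000 bp apart and in 77.8% of 18 pairs up to 100000 bp apart. Since 85.2% of far tiles were negative, neighbours often shared a sign at any distance. A far site was listed inside 543 of the 1253 far tiles, and tile and sites had the same sign in 416 (76.6%, Spearman rho 0.60 across tiles, which share reads with their sites). Of the 60 called tiles 17 held a listed far site. All 17 had the sign of those sites, and 13 held a called one.

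Far loci were unevenly spread over islands, so a few islands weigh heavily in the shares above. The 2645 far sites referred to 1000 islands, 678 of them with 1 far site, and the 5 with the most held 763 (28.8%). A called far site was found at 71 islands (7.10%). The median per island was negative at 548 islands and positive at 416, and the median of these medians was -0.44 points. For tiles 5 of 53 islands held 678 of 1253 (54.1%), and 6 islands had a call. The median per island was negative at 39 of the 53 (73.6%) and positive at 14, with -0.99 points as the median of medians. Counted per tile, 70.3% of all autosomal tiles were negative, with a median of -0.84 points. No count per closest feature was made for tiles outside the far set.

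Islands with many far tiles went different ways. On chromosome 13 the island with the most far tiles had 188, of which 179 were negative with a median of -2.39 points in the authors' deposited table and none called. An island of chromosome 28 had 67 tiles, all negative, none called. An island of chromosome 21 had 70 tiles with a median of 0.40 points in the authors' deposited table and 30 negative. An island of chromosome 20 had 20 far tiles, all positive, with a median of 4.72 points in the authors' deposited table and none called. Negative differences in far tiles were therefore common over islands but not shared by each. Whether islands of far tiles differ in this from the closest features of other tiles was not tested.

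The islands of called far sites had about the same medians as those of uncalled ones. The 71 islands with a called far site had a median length of 836 bp and an observed-to-expected CpG ratio of 0.83. For the 978 islands with an uncalled one these were 852 bp and 0.85. Islands with both kinds of site count in both sets, so the sets overlap and part of the likeness is built in. The locus preceded its island on the chromosome for 60.7% of called and 51.0% of uncalled far sites. All 37 called sites of the chromosome 14 block preceded theirs, and without that block 45 of 98 called far sites did (45.9%).

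Position along the chromosome differed between the tables. The first 1 Mb held 387 far sites (14.6%), of which 15 were called (3.88%), against 120 of the 2258 beyond it (5.31%). Over all autosomal sites the order was the other way, with 5.86% called in the first 1 Mb and 4.27% beyond it. The first 1 Mb held 526 far tiles (42.0%), none called, against 60 of the 727 beyond it (8.25%). The median of far tiles was -2.33 points in the first 1 Mb and -3.16 points beyond it in the authors' deposited table. All autosomal tiles, 30.8% of which lay in the first 1 Mb, had medians of -1.65 and -0.51 points. A negative median was thus common to all tiles at both, and lower in far tiles. For all autosomal tiles the called shares were 0.691% in the first 1 Mb and 3.07% beyond it.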

How the data were processed

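DNA of 12 bull sperm samples (6 with low and 6 with high daughter fertility, grouped by the labels) was sequenced by EM-seq. Bismark, Trimmomatic, methylKit and the build ARS-UCD1.2 are named in the submitters' processing notes. Their versions, roles and settings are not given in the sources used here. The authors deposited 2 tables of their comparison, with a p-value, a q-value, a signed methylation difference in points and the closest annotated feature of each locus, per the file headers. The adjustment behind the deposited q-value is not stated, and it lay below the p-value for 16.3% of far sites and 65.8% of far tiles. Levels per sample and coverage were not analysed here, so depth is unknown and no new test was run. No site was listed on chromosomes 2, 3, 4, 12, 23 and 27, and no tile on 12, 23 and 27. All autosomal shares therefore cover 23 autosomes for sites and 26 for tiles.

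Loci were counted with Python 3.11.15, pandas 2.3.3, numpy 2.4.6 and scipy 1.17.1, by code tested on simulated data, and figures were drawn with matplotlib 3.10.9. Neighbouring loci are not independent. The named loci are the 10 lowest and 10 highest called sites, 1 per block, the lowest tile of each block, the 5 largest blocks of sites and the farthest loci, called and listed. The island of chromosome 20, the strand pair of chromosome 1 and the shared positions of chromosomes 6 and 11 were picked after their values were seen. The far loci, the bins and the rules were chosen with earlier results of these data known. Gene names are those the authors' tables pair with Ensembl identifiers, and distances to genes run to the closest gene feature listed anywhere in the same table. No DNA sequence was used.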

Additional observations from a re-analysis of the deposited data

How the results depend on the processing

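Per-sample values were not analysed here, so no sample was left out in turn and no coverage minimum was changed. No paired analysis was possible because the labels share no replicate numbers between the groups. Of 131 values over 14 results under other settings 85 stayed close to the value reported, 46 moved and 0 reversed sign. Only medians could reverse sign, so the last count says nothing on counts and percentages. Some values could not move, so the 85 is no measure of stability. The distance from the nearest edge equals the listed distance for all 2645 far sites. All 60 called tiles were negative, so any part of them is 100% negative. Leaving out a block changes only the bins it lies in. For percentages and medians, close meant inside a 95% interval that treats loci as independent, which they are not. Counts were judged by a fixed ratio to the count reported. All values by distance bin, and those with 1 locus per island, without the first 1 Mb, with the distance taken from the nearest edge and without the chromosome 14 tile block or both tile blocks, were chosen after seeing the data.

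For far sites, q below 0.01 left 64 calls (2.42%), a size of at least 5 points called 6.5%, and at least 20 points left 57 (2.16%), 70.2% of them negative. Taking 1 site per 1 kb cluster called 6.25%. The locus kept per cluster or island was the one with the lowest p. That choice favours called loci, so these shares are not call rates of independent loci. Without the chromosome 14 block 3.99% were called, with 3.72% at 20 to 100 kb. With 1 site per island 71 were called (7.10%), which is the number of islands with any called far site. Of these 69.0% were negative, with 5.17% called in the nearest bin and 11.7% in the farthest.

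For far tiles, at least 5 points called 306 (24.4%) and at least 20 points called 0 (0%). One tile per 1 kb cluster, again that with the lowest p, left 10 calls (8.4%) and a median of -2.86 points. It gave 12.8% in the middle bin and 12% in the farthest. The chromosome 6 and 14 blocks tie for most calls. Without the chromosome 6 block 37 tiles were called (3.21%), the median was -2.34 points and the farthest bin had 0%. Without the chromosome 14 block 37 were called (3.11%), with 2.10% in the middle bin. Without both 14 were called (1.29%), the median was -2.18 points, the middle bin had 2.10% and the farthest 0%. With 1 tile per island, chosen by lowest p, 5 were called (9.43%) and the median was -1.86 points. The 3 bins had 3.70%, 16.7% and 12.5%. Without the first 1 Mb 8.25% were called, the median was -3.16 points, and the bins had 2.66%, 9.14% and 12.2%. The order of the middle and farthest tile bins thus turned with 1 tile per cluster or per island, over few loci. Beyond the number of loci left in, the cause was not tested. Depth is unknown, so no limit from counting can be given.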

Other observations

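Some rows of the tables repeat another. Among far loci 57 sites and 63 tiles had the same difference and p as an earlier far locus of their table. The label "downstream" was given to far loci on either side of the island, up to 9980 bp for sites and 9987 bp for tiles, and "distal" began at 10002 bp and 10045 bp. It was given to 177 sites and 58 tiles that precede their island. Of the far tiles 4 had a closer island listed in another row of the authors' deposited table, and 5 had a closer gene feature.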
